A study of Homo sapiens with 4 samples.

Results

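The AP-1 and immediate early factors described here are 10 genes: the Jun family (JUN, JUNB and JUND), the Fos family (FOS, FOSB, FOSL1 and FOSL2), the related factor ATF3, and EGR1 and IER2. They were chosen by name, with earlier results of these data known, and each matched 1 of 58735 genes in the deposited tables. The RNA came from 769-P cells, a line grown from a human clear cell carcinoma of the kidney, into which a hairpin RNA against the deubiquitinase gene USP35 had been stably introduced. Doxycycline switches the hairpin on. There were 2 control libraries of untreated cells and 2 libraries of cells kept in doxycycline (1 µg/ml) over 4 days. Control cells carry the hairpin and were selected with puromycin too. Doxycycline was not given to cells lacking the hairpin in any library analysed here, so effects of the drug and of the hairpin cannot be told apart. The labels do not state whether the libraries of a group are separate cultures, and the p-values therefore describe only how far these libraries spread, a spread that may be technical.

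AP-1 is a dimer of basic leucine zipper proteins. Jun proteins pair with each other or with Fos proteins, whereas Fos proteins need a Jun partner to bind DNA, and the members of a pair set how strongly target genes are driven. Many of these genes are immediate early genes, whose transcripts appear within minutes of a growth factor or stress signal without new protein synthesis and decay soon after, through serum response factor and kinases of the ERK, JNK and p38 pathways. In epithelial tumors AP-1 is known for driving genes of invasion and matrix breakdown.

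Promoter stretches of EGR1, JUND and JUNB are shown because they hold, or lack, exact matches to control elements that class immediate early genes. Each is the 250 bases before the start site, written 5′ to 3′ on the gene's strand, from RefSeq on GRCh38.p14. Capitals mark the CArG box, which serum response factor binds, and TGACGTCA, the cyclic AMP response element. TGACTCA, the AP-1 site whose reverse complement is TGAGTCA, was searched as well. None of these motifs overlaps another, and a search of 1 strand covers both. EGR1 lies on the plus strand (chr5:138465229-138465478), JUND on the minus strand (chr19:18281623-18281872) and JUNB on the plus strand (chr19:12791236-12791485).
EGR1: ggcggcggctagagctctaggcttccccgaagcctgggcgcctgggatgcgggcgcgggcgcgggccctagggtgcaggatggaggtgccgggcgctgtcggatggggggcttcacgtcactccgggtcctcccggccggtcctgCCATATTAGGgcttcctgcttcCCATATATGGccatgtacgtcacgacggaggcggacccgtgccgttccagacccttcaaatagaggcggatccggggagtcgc
JUND: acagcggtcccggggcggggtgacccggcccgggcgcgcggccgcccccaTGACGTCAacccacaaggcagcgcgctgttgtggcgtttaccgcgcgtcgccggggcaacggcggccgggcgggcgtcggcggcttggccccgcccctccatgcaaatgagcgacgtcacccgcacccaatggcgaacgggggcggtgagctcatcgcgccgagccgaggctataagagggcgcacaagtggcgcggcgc
JUNB: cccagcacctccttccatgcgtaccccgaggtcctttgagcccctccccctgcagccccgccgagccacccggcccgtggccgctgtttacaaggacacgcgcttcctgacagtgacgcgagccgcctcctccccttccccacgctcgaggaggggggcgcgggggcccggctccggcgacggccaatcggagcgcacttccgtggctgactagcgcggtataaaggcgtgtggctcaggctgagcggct

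The EGR1 window holds 2 CArG boxes, at 105 to 96 and at 83 to 74 bases before the start. The JUND window holds TGACGTCA at 200 to 193 bases before the start. Of the 9 members with a promoter entry, the other 7 hold none of the motifs in their windows. The start sites are those of RefSeq and can differ from the gene starts of GENCODE release 29 given below. By the latter, the windows of JUN and FOSL2 lie wholly inside the gene, and those of FOS and FOSB in part. ATF3 had 2 windows, 1 partly and 1 wholly inside the gene. FOSL1 had no entry. Over 27305 promoters, 1.14% held a CArG box, 1.77% held TGACGTCA and 4.16% held TGACTCA or TGAGTCA. A match describes the letters and is not a measured binding site. An element outside the window, or with other letters, would be missed.

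Values are deposited FPKM, which divides fragments by gene length in kilobases and by library size. The libraries held between 16319640 and 18764546 reads, recovered from the steps of the FPKM values. The library size behind the FPKM values was not equal to these totals. It was 97.2% and 101% of them for the controls and 107.5% and 97.6% for doxycycline replicates 1 and 2. USP35, the target of the hairpin, stood at 3.31 and 4.19 FPKM untreated against 2.11 and 2.54 FPKM treated, lower in both treated libraries, and did not pass the test (limma adjusted p = 0.256). Its log2 difference was -0.51, and -0.20 after adjustment for length and GC content. The 2 doxycycline libraries stand apart from each other. The summed level of 10 interferon response genes was 26.3 and 24.7 FPKM untreated, 1233 FPKM for doxycycline replicate 1 and 31.4 FPKM for replicate 2. The share of reads from mitochondrially encoded genes was 8.21% and 8.50% untreated, 7.44% for doxycycline replicate 1 and 14.6% for replicate 2. Of 8 renal carcinoma markers 7 were tested and 0 passed. Their summed level was 713 and 582 FPKM untreated and 565 and 524 FPKM treated. Most of this sum was VIM, at 502 and 380 FPKM untreated and 351 and 328 FPKM treated. PAX8 lay between 38.5 and 53.9 FPKM and PAX2 between 4.78 and 6.15 FPKM, while CA9 lay at or below 0.0377 FPKM. CA12 was 13.3 and 17.3 FPKM untreated and 48.2 and 59.8 FPKM treated (limma adjusted p = 0.0573), and KRT18 was 62.3 and 50.0 FPKM untreated and 31.3 and 30.7 FPKM treated (adjusted p = 0.148). Summed fibroblast markers lay at or below 0.804 FPKM, leukocyte markers at or below 0.213 FPKM and endothelial markers at or below 0.00512 FPKM.

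Among the members, JUNB and FOSL1 were 3.49 and 3.18 times lower in mean FPKM with doxycycline and were below both controls in both treated libraries. EGR1 was lower in both treated libraries as well, at a far lower level. JUN, JUND, ATF3 and IER2 parted between the 2 doxycycline libraries, with replicate 2 below both controls and replicate 1 near or above them, and FOSL2 stayed between 29.2 and 35.3 FPKM. FOS and FOSB were below 1 FPKM throughout. Differences below are doxycycline minus control in log2(FPKM + 1), which understates the change of low genes. The test was limma over the 12029 genes that averaged 1 FPKM or more, of which 8 are members, with a threshold of an adjusted p under 0.05. In that test 0 of the 8 members passed, beside 0% of all genes tested. At an unadjusted p under 0.05 there were 3 members lower and 0 higher, beside 11.9% and 6.47% of all genes. Both treated libraries lay below both controls for 3 of the 8 members and above both for 0, beside 28.9% and 24.3% of all genes. By either count the 3 were JUNB, FOSL1 and EGR1. EGR1 reached the minimum mean of 1 FPKM for testing only through the controls, so it could enter these counts only as lower. For 1 gene taken alone, 2 libraries against 2 allow no two-sided exact permutation p smaller than 0.333. With cells measured in bulk, fewer cells with a transcript and less of it per cell cannot be told apart.

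**Figure D1:**
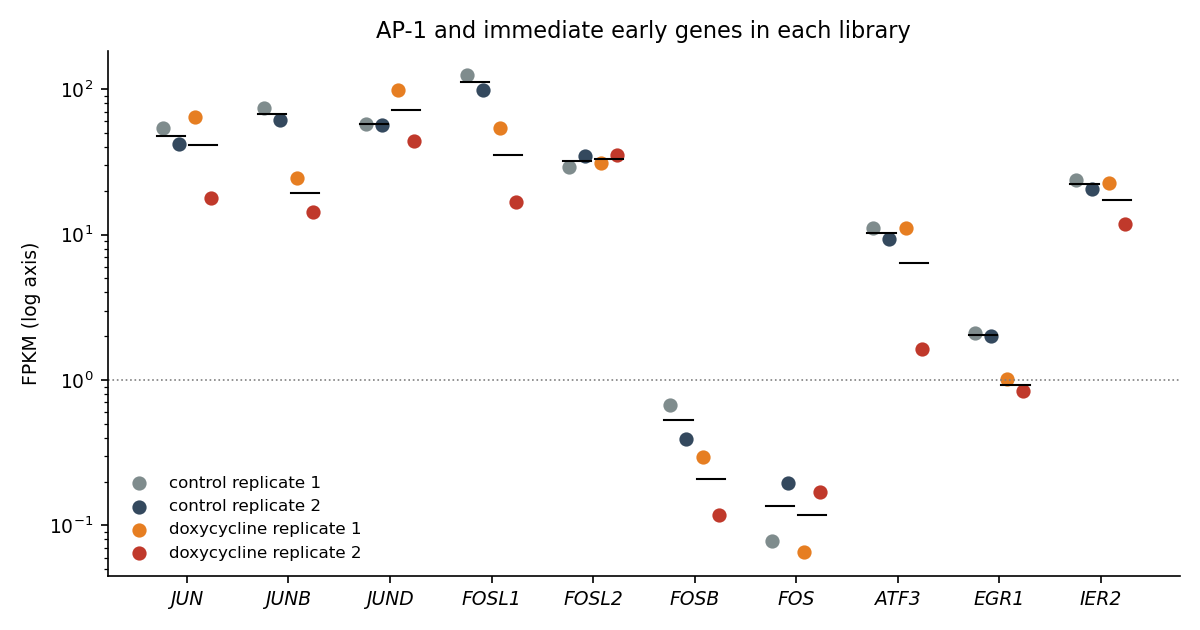
FPKM on a log axis for each of the 10 genes, with 1 point per library, short black lines for group means (n = 2) and a dotted line at 1 FPKM, the minimum mean for testing. JUNB and FOSL1 sit lower in both doxycycline libraries, JUN, JUND, ATF3 and IER2 spread between them, and FOS and FOSB lie below the dotted line.

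In untreated cells the order of levels was the same in both controls. FOSL1 was highest, followed by JUNB, JUND, JUN, FOSL2, IER2, ATF3, EGR1, FOSB and FOS, and no 2 neighbours in this order overlapped between the controls. FOSL1 lay above 97.8% and 97.4% of the genes tested in the 2 controls, and EGR1 above 19.3% and 17.5%. With doxycycline JUND was highest in both libraries, at 98.9 and 44.3 FPKM, and JUNB had rank 5 in both. The ranks of JUN, FOSL1 and FOSL2 differed between the 2 treated libraries, so their order was not beyond the spread there. FOS and FOSB, the 2 lowest members, also changed places between the treated libraries.

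In the Jun family, JUNB (ENSG00000171223, chr19:12791496-12793315, plus strand, a gene without introns in GENCODE release 29) encodes a Jun protein that activates transcription less strongly than c-Jun in many settings. It stood at 73.9 and 61.5 FPKM untreated against 24.5 and 14.2 FPKM for doxycycline replicates 1 and 2, from 2135, 1948, 839 and 474 reads. The groups do not overlap, and the lower control is above the higher treated library by more than either group's own spread. The means were 67.7 ± 8.83 and 19.4 ± 7.28 FPKM (SD, n = 2 each), a ratio of 0.286. Treated minus untreated was -1.80 on the log2 scale (SE 0.30; limma unadjusted p = 9.88e-04, adjusted p = 0.0691). JUNB passed in 6 of 17 alternative analyses, with adjusted p from 6.41e-05 to 0.692. It was lower in every alternative analysis. The smallest of these log2 differences was -1.40, after adjustment for length and GC content (limma adjusted p = 0.0308). Of its length, 14.2% (259 bases) overlaps exons of HOOK2 on the other strand, and strandedness of the counts is not given in the sources used here. HOOK2 stood at 4.11 and 3.99 FPKM untreated against 2.94 and 2.31 FPKM treated.

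JUN (ENSG00000177606, chr1:58780788-58784327, minus strand, without introns) encodes c-Jun, the main target of the JNK kinases. Its level was 53.9 and 41.8 FPKM untreated, 64.3 FPKM for doxycycline replicate 1 and 17.7 FPKM for replicate 2. Replicate 1 was above both controls and replicate 2 below both. In log2 units the groups differed by -0.47 (SE 0.57; limma adjusted p = 0.679). It was 0.43 without doxycycline replicate 2 and -1.38 without replicate 1, so its sign rests on which treated library is used. Adjusting for length and GC content gave -0.27 (adjusted p = 0.773).

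JUND (ENSG00000130522, chr19:18279760-18281622, minus strand, without introns) encodes JunD, the Jun protein made most steadily in resting cells. It stood at 58.0 and 56.6 FPKM untreated, 98.9 FPKM for doxycycline replicate 1 and 44.3 FPKM for replicate 2. Here too replicate 1 was above both controls and replicate 2 below. The fitted log2 difference came to 0.21 (SE 0.39; limma adjusted p = 0.805), and it was -0.37 without doxycycline replicate 1 and 0.78 without replicate 2. After adjustment for gene length and GC content it was 0.70, with both treated libraries above both controls (adjusted p = 0.109).

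Per unit of length, the shares of JUNB and JUND in the summed Jun transcripts did not overlap between the groups. No test was run on the shares. JUNB made up 39.8% and 38.4% of the summed Jun family FPKM untreated and 13.1% and 18.7% treated. JUND made up 31.2% and 35.4% untreated and 52.7% and 58.1% treated. The share of JUN overlapped between the groups and lay between 23.2% and 34.3% in all libraries. The summed Jun level itself was 186 and 160.0 FPKM untreated, 188 FPKM for doxycycline replicate 1 and 76.2 FPKM for replicate 2. JUND over JUNB was 0.784 and 0.922 untreated and 4.03 and 3.11 treated.

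In the Fos family, FOSL1 (ENSG00000175592, chr11:65892049-65900573, minus strand) encodes Fra-1, a Fos protein without the strong activation domain of c-Fos that is often abundant in invasive tumor cells. It stood at 126 and 97.9 FPKM untreated against 53.6 and 16.7 FPKM for doxycycline replicates 1 and 2, from 3768, 3218, 1902 and 577 reads. Both treated libraries were below both controls, and they differed from each other 3.21-fold. The means were 112 ± 19.8 and 35.2 ± 26.1 FPKM (SD, n = 2 each), a ratio of 0.314. Treated minus untreated was -1.85 on the log2 scale (SE 0.52; limma unadjusted p = 0.0122, adjusted p = 0.165). Without doxycycline replicate 1 it was -2.66 and without replicate 2 it was -1.04, so the size but not the direction moved with the library. Adjustment for length and GC content gave -1.57 (limma adjusted p = 0.114).

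FOSL2 (ENSG00000075426, chr2:28392448-28417312, plus strand) encodes Fra-2, the other Fos protein of this kind. It stood at 29.2 and 34.7 FPKM untreated against 30.9 and 35.3 FPKM treated. The groups overlap, and the log2 difference was 0.05 (SE 0.21; limma adjusted p = 0.916). Leaving out control replicate 1 gave -0.07, and leaving out doxycycline replicate 2 gave -0.04. Adjustment for length and GC content gave 0.17 (adjusted p = 0.575). FOSL1 was 4.31 and 2.82 times as high as FOSL2 per length in the controls, 1.73 times in doxycycline replicate 1 and 0.473 times in replicate 2.

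FOS and FOSB, the classic serum-induced members, were not tested because their means were below 1 FPKM. FOS (ENSG00000170345, chr14:75278774-75282230, plus strand), which encodes c-Fos, was at 0.0779 and 0.195 FPKM untreated against 0.0657 and 0.169 FPKM treated. These values rest on 4, 11, 4 and 10 reads, and the exact 95% Poisson interval of the 4 reads in control replicate 1 reaches from 1.09 to 10.2 reads. No difference was detectable at this depth. FOSB (ENSG00000125740, chr19:45467995-45475179, plus strand) was at 0.67 and 0.393 FPKM untreated against 0.297 and 0.118 FPKM treated, from 59, 38, 31 and 12 reads. Both treated libraries were below both controls, but the 95% intervals of the reads in control replicate 2 (26.9 to 52.2) and doxycycline replicate 1 (21.1 to 44.0) overlap. These intervals hold for counting error alone, because no molecular identifiers mark independent molecules.

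FOSL1 therefore made up most of the summed Fos transcripts in the controls, at 80.8% and 73.5%, and FOSL2 18.8% and 26.1%. In doxycycline replicate 1 the shares were 63.2% and 36.4%, and in replicate 2 they were 31.9% and 67.5%. FOS never exceeded 0.322% of the sum, nor FOSB 0.43%. The summed Fos level was 156 and 133 FPKM untreated against 84.9 and 52.3 FPKM treated, lower in both treated libraries. Summed Jun over summed Fos was 1.19 and 1.20 in the controls and 2.21 and 1.46 with doxycycline.

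**Figure D2:**
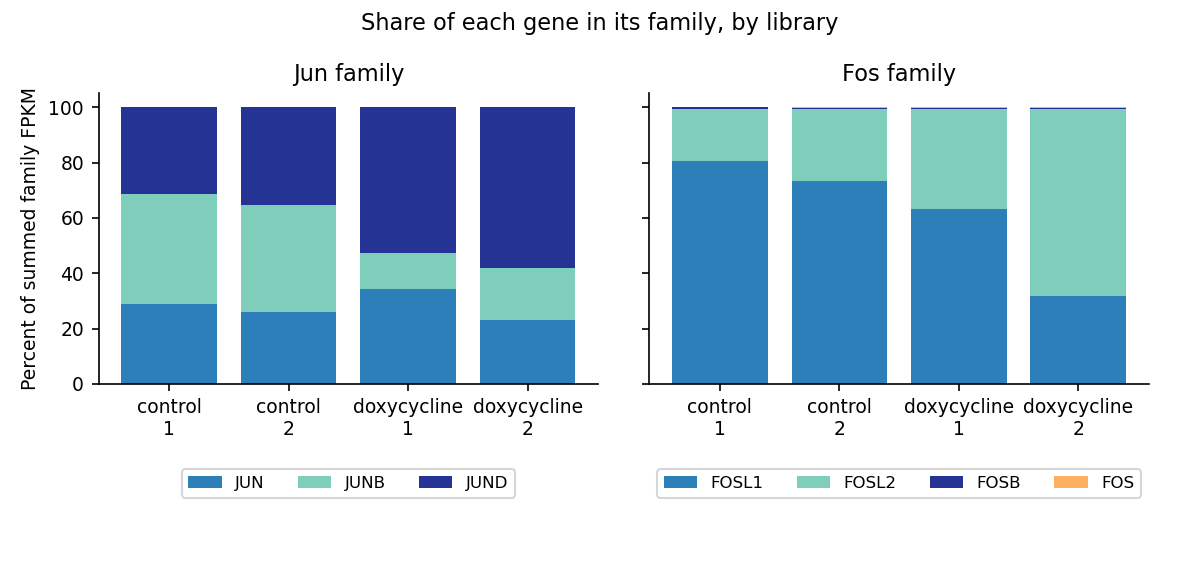
Stacked bars give the percent of the summed FPKM of the Jun family (left) and the Fos family (right) held by each gene in each library. JUND holds 52.7% and 58.1% of the Jun sum in the doxycycline libraries against 31.2% and 35.4% in the controls, and the FOSL1 share of the Fos sum is 31.9% in doxycycline replicate 2.

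ATF3 (ENSG00000162772, chr1:212565334-212620777, plus strand) encodes a stress-induced leucine zipper factor that pairs with Jun proteins and often represses. It stood at 11.1 and 9.31 FPKM untreated, 11.01 FPKM for doxycycline replicate 1 and 1.64 FPKM for replicate 2, from 713, 655, 836 and 121 reads. Replicate 1 lay between the controls and replicate 2 far below them. In log2 units the groups differed by -0.99 (SE 0.66; limma adjusted p = 0.454), and it was 0.10 without doxycycline replicate 2 and -2.08 without replicate 1.

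EGR1 (ENSG00000120738, chr5:138465490-138469315, plus strand) encodes a zinc finger factor and is a standard readout of ERK signalling. Its level was 2.09 and 2.01 FPKM untreated against 1.017 and 0.835 FPKM for doxycycline replicates 1 and 2, from 104, 110, 60 and 48 reads. The groups do not overlap, and the 2 libraries of each group were close. The means were 2.05 ± 0.0539 and 0.926 ± 0.129 FPKM (SD, n = 2 each), a ratio of 0.452. EGR1 thus reached the minimum mean of 1 FPKM for testing through the controls. The fitted log2 difference came to -0.66 (SE 0.21; limma unadjusted p = 0.0177, adjusted p = 0.188). On recovered reads with limma-voom, where no pseudocount of 1 FPKM is added, it was -1.11 (adjusted p = 0.159).

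IER2 (ENSG00000160888, chr19:13150415-13154908, plus strand) encodes a small nuclear protein induced early by growth factors. It stood at 23.7 and 20.5 FPKM untreated, 22.5 FPKM for doxycycline replicate 1 and 11.9 FPKM for replicate 2. As for ATF3, replicate 1 lay between the controls and replicate 2 below them. Treated minus untreated was -0.41 on the log2 scale (SE 0.32; limma adjusted p = 0.519), and it was 0.03 without doxycycline replicate 2. Adjusting for length and GC content gave -0.08 (adjusted p = 0.791). Of its length, 30.8% overlaps AC011446.2 on the other strand, which is listed at 0 in every library.

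**Figure D3:**
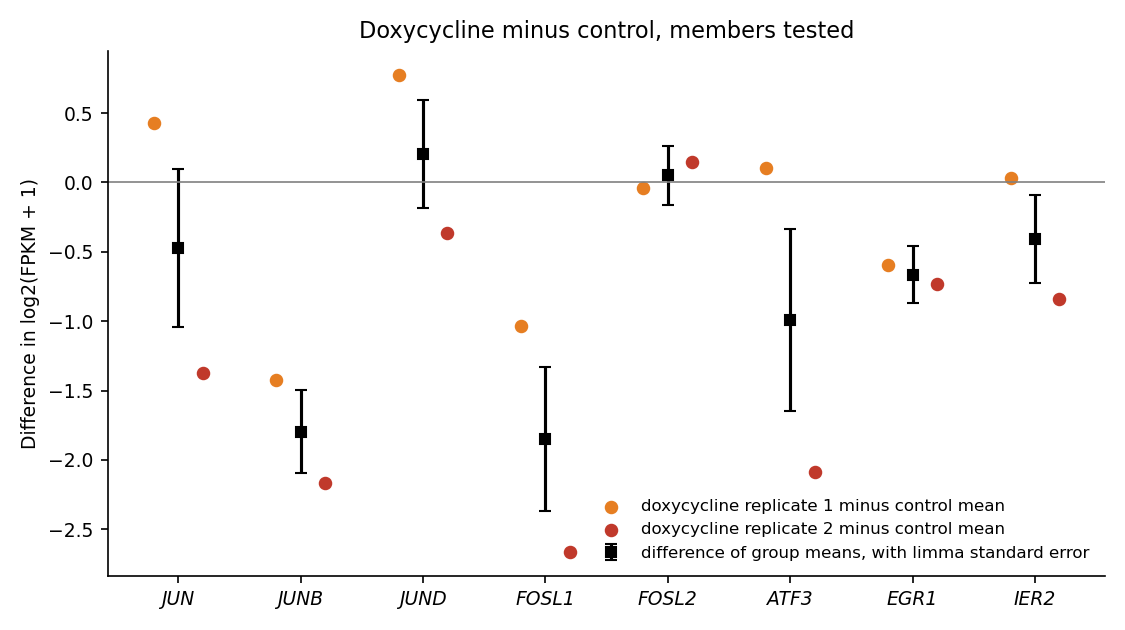
Difference in log2(FPKM + 1) for the 8 members tested: black squares with limma standard errors are doxycycline minus control group means, and coloured points are each doxycycline library minus the control mean. JUNB, FOSL1 and EGR1 have both points below 0, while the points of JUN and JUND lie on either side of 0.

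The 2 doxycycline libraries differed in the same direction for most members. Replicate 2 was below replicate 1 for 7 of the 8 members tested, against 50.3% of all genes tested, with FOSL2 the exception. The difference in log2(FPKM + 1) was -2.19 for ATF3, -1.81 for JUN, -1.63 for FOSL1 and -1.14 for JUND. Replicate 2 was lower by at least 1 for these 4 members, and for 4.00% of genes tested. It was higher by at least 1 for 0 members, and for 2.77% of genes tested. A downward difference as large as that of ATF3 was seen for 0.54% of genes, and one as large as that of JUN for 0.823%. Each is a difference between 2 libraries, with no replicate check. Between the 2 controls the members differed by at most 0.36, with 0 apart by 1 or more, beside 1.12% of genes tested. Control replicate 2 was below replicate 1 for every member tested except FOSL2. The share of all genes with that direction was not computed, so nothing is read from this count. The differences between the controls ran from -0.03 for JUND to -0.36 for FOSL1, against 0.24 for FOSL2. Of genes tested, 89.1% were at least as far apart between the controls as JUND, and 13.9% as FOSL1. The median of the 8 members was -0.01 in doxycycline replicate 1 and -1.11 in replicate 2, beside -0.02 and -0.03 for all genes tested.

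The interferon level and the mitochondrial share given above also part the 2 doxycycline libraries, and the part of the interferon level in the members' difference was not tested. After rescaling without mitochondrially encoded genes, the difference between the 2 libraries was -2.10 for ATF3, -1.69 for JUN and -1.51 for FOSL1. Several members are rich in GC. The transcripts of JUND, JUNB and IER2 are 69.7%, 64.9% and 61.7% GC, against a median of 47.7% for genes tested, and ATF3 is at 46.7%. After adjustment for length and GC content, the difference between the treated libraries was -0.35 for JUND, -0.11 for JUNB and -0.37 for IER2 and turned from -0.14 to 0.13 for EGR1, which leaves 6 of 8 members lower in replicate 2, while it was -2.25 for ATF3, -1.50 for JUN and -1.16 for FOSL1.

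**Figure D4:**
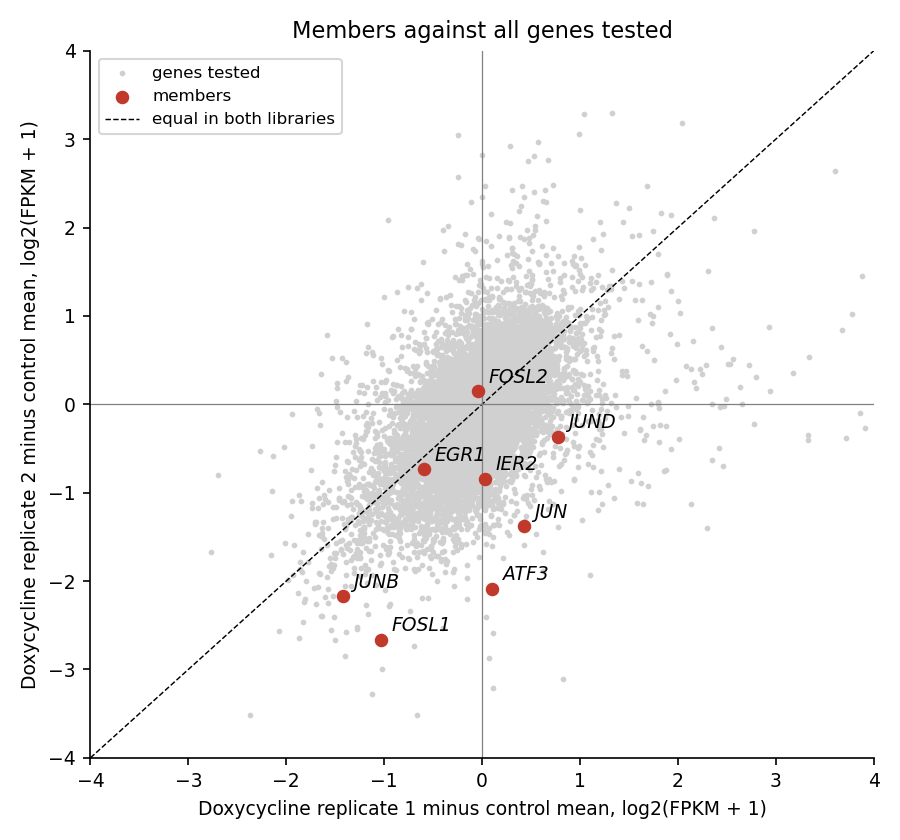
Each point is a gene, with doxycycline replicate 1 minus the control mean on the horizontal axis and replicate 2 minus the control mean on the vertical axis, both in log2(FPKM + 1). Grey points are the 12029 genes tested, of which 14 lie outside the axes, and 7 of the 8 members (red) lie below the dashed line of equal difference.

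By their profile over the 4 libraries, 5 members varied enough (a span of at least 1 in log2) to look for the most similar gene among 10220 other protein-coding genes. Likeness was the Euclidean distance between centred log2(FPKM + 1) values, with 4 points per gene. The nearest gene to FOSL1 was PMEPA1, a TGF-beta-induced membrane protein, at 113, 95.7, 50.8 and 16.0 FPKM in the controls and doxycycline replicates 1 and 2 (distance 0.0901). The nearest to JUNB was AURKB, a mitotic kinase, at 45.6, 36.6, 13.5 and 8.28 FPKM (distance 0.0952). JUN was nearest to PHLDA3 (distance 0.163) and JUND to PRKD2 (distance 0.0388).

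Textbook AP-1 targets were looked at next, as 20 genes of which 10 were tested, since the others were below a mean of 1 FPKM. This list and those below were chosen with earlier results of these data known. Their counts beside the shares of all genes are therefore descriptions and not independent support. In the limma test 0 rose and 0 fell, and 4 of the 10 were lower at an unadjusted p under 0.05 and 0 higher, beside 11.9% and 6.47% of all genes. Both treated libraries lay below both controls for 4 of the 10, beside 28.9% of all genes. The median log2 difference was -0.76, beside -0.03 for all genes tested, and it was -0.28 for doxycycline replicate 1 and -1.19 for replicate 2. MMP1, an interstitial collagenase and the classic AP-1 target, stood at 4.61 and 2.68 FPKM untreated against 0.27 and 0.222 FPKM treated, from 144, 92, 10 and 8 reads. Its log2 difference was -1.87 (limma adjusted p = 0.0573, and no gene tested had a lower one). MMP1 reached the minimum mean of 1 FPKM for testing only through the controls, where it was high. CD44, the hyaluronan receptor, stood at 68.3 and 60.9 FPKM untreated against 31.2 and 28.4 FPKM treated (adjusted p = 0.0795). Both lay below both controls in both treated libraries.

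Of 23 other immediate early genes, 15 were tested, and 0 rose and 0 fell in the limma test. At an unadjusted p under 0.05 there were 3 higher and 3 lower, beside 6.47% and 11.9% of all genes. Both treated libraries lay above both controls for 4 of the 15 and below both for 5, beside 24.3% and 28.9% of all genes. The median of the 15 was -0.20. Taken singly, doxycycline replicate 1 gave 0.14 and replicate 2 gave -0.55. GADD45B, a growth arrest and stress gene, stood at 17.1 and 12.0 FPKM untreated against 6.94 and 3.81 FPKM treated (adjusted p = 0.119). BTG1 and BTG2, which restrain proliferation, were above both controls in both treated libraries, BTG1 at 18.8 and 22.0 FPKM against 32.4 and 42.4 FPKM and BTG2 at 9.56 and 9.79 FPKM against 14.9 and 25.1 FPKM (adjusted p = 0.158 and 0.175). The early growth response genes EGR3 and EGR4 had no read in any library.

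Among 19 kinases and factors that act upstream, 18 were tested, with 0 rising and 0 falling, and 3 lower and 0 higher at an unadjusted p under 0.05, beside 11.9% and 6.47% of all genes. SRF, the serum response factor that binds CArG boxes, stood at 21.9 and 18.6 FPKM untreated against 11.8 and 8.32 FPKM treated, a log2 difference of -0.95 (SE 0.23; limma adjusted p = 0.129). MRTFA, an actin-regulated partner of SRF, stood at 9.11 and 9.57 FPKM against 6.03 and 4.50 FPKM (adjusted p = 0.156), and ELK3, a ternary complex factor, at 17.0 and 14.1 FPKM against 9.52 and 9.12 FPKM (adjusted p = 0.167). These genes were named for having the lowest p of the list, and all lay below both controls in both treated libraries. Of the 18 genes tested, 7 lay below both controls and 2 above both, beside 28.9% and 24.3% of all genes. The median of the 18 was -0.14.

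Of 12 other partners of AP-1 dimers, 9 were tested, with 0 rising and 0 falling, 1 higher and 0 lower at an unadjusted p under 0.05 (6.47% and 11.9% of all genes), and a median of 0.21. ATF7, a Jun partner, was at 2.95 and 3.96 FPKM untreated against 5.03 and 5.42 FPKM treated (limma adjusted p = 0.265). MAFF, a small Maf protein, was at 2.25 and 1.99 FPKM against 1.77 and 0.768 FPKM (adjusted p = 0.384). BATF2, an interferon-induced member, was at 0.0222 and 0.162 FPKM untreated, 5.85 FPKM for doxycycline replicate 1 and 0.096 FPKM for replicate 2 (limma adjusted p = 0.414). The library with the high interferon genes was the one where BATF2 was high. It reached the minimum mean for testing through that library alone. The genes for ubiquitin ligases that turn over Jun proteins, FBXW7, COP1 and ITCH, overlapped between the groups, with log2 differences of -0.01, 0.14 and 0.07 (adjusted p = 0.983, 0.733 and 0.891), and DET1, the remaining gene of the list, was not tested.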

How the data were processed

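The authors deposited 1 table of FPKM per library for 4 libraries, per the file headers. The submitters' processing notes list HISAT2 2.0.5, featureCounts 1.5.0-p3 and limma without saying what each did. Build, strandedness, filters and library size are not given in the sources used here. Coordinates of all 58735 genes equal those of GENCODE release 29 on GRCh38. Groups and replicate numbers came from the labels.

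FPKM times length gave whole reads for 100% of values (tolerance 0.02 reads, widened in proportion to the count for the highest counts), which gives the depth. Genes averaging 1 FPKM or more (12029) were tested on log2(FPKM + 1) with limma-trend (limma 3.58.1 under R 4.3.3; 2 residual degrees of freedom; two-sided; Benjamini-Hochberg adjusted over the genes tested). Group means and SD are on FPKM. The steps were tested on simulated data. Tables were handled with pandas 2.3.3 in Python 3.11.15. Alternatives changed the pseudocount, filter, scaling, variance model, GC and length adjustment, used voom on recovered reads, added a replicate block, or left out each library.

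The members and the 5 gene lists (78 genes) were chosen with earlier results of these data known. Genes named are the members, USP35, the 3 genes of lowest p per list and the nearest profiles, except 2 genes that are not reported here. HOOK2, AC011446.2, EGR3, EGR4, DET1 and the marker genes were named outside that rule, after their values were seen.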

Additional observations from a re-analysis of the deposited data

How the results depend on the processing

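Of the 8 members tested, 0 passed in the analysis reported. JUNB alone passed, as 1 member lower, when genes had to average 5 FPKM, when only protein-coding genes were tested, and when values were adjusted for length and GC, where 1 member (JUND) also lay above both controls. These settings called 42, 38 and 55 genes higher and 219, 204 and 252 lower, and 1 AP-1 target lower in each. The protein-coding setting tested 10228 genes, and EGR1 fell below the minimum of 5 FPKM in the first. Voom called 13 genes higher and 83 lower. With the replicate block, 2 members (JUNB and FOSL1) and 582 genes were lower and 202 genes higher, with 3 AP-1 targets and 1 upstream gene lower, and 1 other immediate early gene higher and 1 lower. The numbers are not known to pair the libraries (deviations of same-numbered libraries correlated at 0.207 over genes).

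Leaving out 1 library gave 0 to 6 members lower and 0 to 1 higher, where the lone library is assumed to vary like the other group. Without doxycycline replicate 1 the log2 difference was -1.38 for JUN, -2.17 for JUNB, -2.66 for FOSL1 and -2.08 for ATF3. It was -0.73 for EGR1, -0.84 for IER2, -0.37 for JUND and 0.14 for FOSL2. Without doxycycline replicate 2 it was -1.42 for JUNB, -1.04 for FOSL1, -0.60 for EGR1 and -0.04 for FOSL2. JUND, JUN, ATF3 and IER2 were then above 0, at 0.78, 0.43, 0.10 and 0.03. No member passed without either control. Over all genes the ranges were 0 to 2389 lower and 0 to 1553 higher. Members wholly below the controls numbered 3 to 7, beside 35.3% to 45.5% of all genes with the same library left out, and wholly above 0 to 2, beside 32.1% to 41% of genes. Counts ranged from 0 to 7 lower and 0 to 1 higher for AP-1 targets, 0 to 8 and 0 to 4 for other immediate early genes, 0 to 4 and 0 to 1 for upstream genes, and 0 to 2 and 0 to 3 for dimer partners. Signs reversed within the leave-one-out ranges of JUN (-1.38 to 0.43), JUND (-0.37 to 0.78), ATF3 (-2.08 to 0.10), IER2 (-0.84 to 0.028) and FOSL2 (-0.069 to 0.17, with -0.04 without doxycycline replicate 2). Medians ranged from 0.0084 to 0.230 for dimer partners, -0.246 to -0.0975 for upstream genes and -0.013 to 0.097 for turnover genes. The cause was not tested.

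The dimer partner median was 0.093 at 5 FPKM, 0.292 under quantile normalization, 0.252 without mitochondrial genes and 0.260 with voom. The upstream median was -0.233 at 5 FPKM. The turnover median was 0.169 under quantile normalization, 0.110 without mitochondrial genes and -0.028 with the length and GC adjustment.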

Other observations

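The files mark genes of the basic leucine zipper class. Outside the members, 29 of 40 such genes were tested and 0 passed (limma adjusted p), with a median log2 difference of 0.05. Both treated libraries lay above both controls for 8 of the 29 and below for 5, beside 24.3% and 28.9% of all genes tested. The lowest p belonged to NFIL3, a repressor linked to the circadian clock and immunity, at 8.74 and 8.76 FPKM untreated against 18.5 and 16.8 FPKM treated (limma adjusted p = 0.0817). HLF, a factor of the same clock output group as TEF, stood at 1.16 and 1.84 FPKM untreated against 2.87 and 12.2 FPKM treated (adjusted p = 0.234), and TEF at 3.69 and 4.01 FPKM against 2.48 and 2.34 FPKM (adjusted p = 0.222). These genes were chosen after their values were seen.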
